A study of Mus musculus with 24 samples.

Results

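Reads of 9 genes that mark microglia, the resident macrophages of the brain, were followed through RNA-seq libraries of sorted brain endothelial cells. The genes were the 3 complement genes C1qa, C1qb and C1qc, the receptor genes Csf1r, Trem2, Cx3cr1 and P2ry12, and Tmem119 and Aif1. They were taken by gene symbol from the deposited table, were 9 of its 53465 genes, and all 9 were among the 15493 genes that passed the filter, which asked for 5 normalized reads or more in 6 or more libraries of one genotype. The libraries came from cells positive for CD31, the endothelial surface protein encoded by Pecam1, sorted from the brains of single C57BL/6J mice. Of the 24 mice, 12 were Bmal1fl/fl controls, which carry a floxed but intact Bmal1 (listed as Arntl), and 12 were Bmal1fl/fl; Tie2cre mutants, in which Cre made from the Tie2 promoter removes the floxed exon of this clock gene. Tie2-driven Cre acts in endothelium and can also act in blood-derived cells, and whether the cells that gave the microglial reads had lost the exon was not measured. Mice were collected at zeitgeber time (ZT, hours after lights on) 2, 6, 10, 14, 18 and 22, with 2 mice of each genotype at each time and 1 library per mouse. The ages of the mice are not in the labels.

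Microglia enter the brain in the embryo from blood-forming cells of the yolk sac and then renew themselves there. They depend on signals through the receptor CSF1R, and in the healthy brain they survey synapses and vessels with motile processes that carry P2RY12 and CX3CR1. They make the C1q proteins that start the classical complement pathway, and TREM2 is known for their response to lipids and damaged cells. Brain endothelium is not known as a main source of any of these transcripts, so in a sort of endothelial cells the 9 genes serve as a reading of RNA from microglia and related macrophages in each library.

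The bases before the start sites of the 9 genes were searched where a reference window was at hand. RefSeq windows on GRCm38.p6 matched 6 of the 9 genes, C1qb, C1qc, Cx3cr1, P2ry12, Aif1 and Trem2. The 250 bases before the start were searched on both strands for GAGGAA, the core letters bound by the myeloid transcription factor PU.1, and for CACGTG, the palindromic E-box bound by BMAL1 with its partner CLOCK. Annotated exons of the gene cover all 250 bases of the Cx3cr1 window, 151 of the C1qc window and 16 of the Aif1 window. No window held both motifs. GAGGAA was held by 4 of the 6 windows (C1qb, C1qc, Aif1 and Trem2), against 23.3% of 32851 windows of the same length, and CACGTG by 1 (P2ry12), against 6.02%. The 3 windows that hold a match and no annotated exon base are given 5′ to 3′ on the strand of the gene, with the match in capitals. They lie at chr3:59262986-59263235 on the minus strand for P2ry12, at chr4:136886201-136886450 on the minus strand for C1qb and at chr17:48346151-48346400 on the plus strand for Trem2, where the match is read from the other strand as TTCCTC. A match of letters is a description and not a bound site.
P2ry12: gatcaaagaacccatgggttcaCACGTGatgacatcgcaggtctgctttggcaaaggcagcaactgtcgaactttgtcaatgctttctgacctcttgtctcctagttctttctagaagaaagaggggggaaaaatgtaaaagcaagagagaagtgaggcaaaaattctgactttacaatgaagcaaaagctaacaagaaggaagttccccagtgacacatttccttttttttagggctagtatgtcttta
C1qb: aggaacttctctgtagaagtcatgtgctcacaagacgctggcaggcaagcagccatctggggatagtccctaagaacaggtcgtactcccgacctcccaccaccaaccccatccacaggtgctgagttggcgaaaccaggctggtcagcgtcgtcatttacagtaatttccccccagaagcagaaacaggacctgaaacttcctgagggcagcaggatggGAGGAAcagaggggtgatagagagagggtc
Trem2: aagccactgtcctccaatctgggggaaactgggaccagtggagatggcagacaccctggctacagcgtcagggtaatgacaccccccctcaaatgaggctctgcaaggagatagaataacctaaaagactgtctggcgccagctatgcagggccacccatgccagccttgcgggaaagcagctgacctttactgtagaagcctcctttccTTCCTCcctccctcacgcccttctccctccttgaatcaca

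The libraries held 6136404 to 6648311 normalized reads each. Arntl was listed with 1 to 468 reads in controls, with 439 and 466 at ZT2 and 1 and 22 at ZT10, and with 81 to 354 in mutants. The gene count takes in all exons, so it does not show loss of the floxed exon. The time course of Arntl differed between genotypes by DESeq2's likelihood ratio test (adjusted p = 4.05e-06) and not by edgeR's test (adjusted p = 0.141), unless the class of ZT6 and ZT18 libraries described next was a covariate (edgeR adjusted p = 0.00103, added after the data were seen). The endothelial markers Cldn5, Pecam1 and Cdh5 had at least 2385, 4971 and 4220 reads in every library, as labelled. The 8 libraries of ZT6 and ZT18, 4 of each genotype, stood apart. Their library numbers form 1 unbroken run, and no library of another time falls in it. Time of day and number run therefore cannot be told apart, and every comparison of ZT6 and ZT18 with the other times is also a comparison of those libraries with the 16 others. The mitochondrial share of reads was 2.68% to 3.90% in these 8 libraries and 5.78% to 17.4% in the 16 others.

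The 9 genes were low in all 8 libraries of ZT6 and ZT18 and high in all 16 others, in both genotypes. Their summed reads lay between 7908 and 21553 at ZT2, ZT10, ZT14 and ZT22 (median 15570) and between 725 and 1330 at ZT6 and ZT18 (median 876.5), a 15.5-fold difference of the means. Set against the summed reads of 18 endothelial markers of the same library, the 9 genes amounted to 3.89% to 12.9% at the other times (median 8.60%) and to 0.320% to 0.582% at ZT6 and ZT18 (median 0.405%). In bulk RNA, fewer microglia among the sorted cells and less of these RNAs per microglial cell cannot be told apart.

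CSF1R is the receptor for the growth factors CSF1 and IL-34 on which microglia depend. Csf1r (ENSMUSG00000024621, GRCm38 chr18:61100598-61132149, plus strand) had the most reads of the 9 genes. In the 2 control mice of each time its normalized reads were 5897 and 2519 (ZT2), 260 and 231 (ZT6), 5871 and 5543 (ZT10), 3181 and 3361 (ZT14), 227 and 342 (ZT18), and 5947 and 6393 (ZT22). In the mutant mice, in the same order of times, they were 4194 and 5245, 256 and 362, 5874 and 7132, 4775 and 4905, 283 and 397, and 2872 and 7270. The highest ZT6 or ZT18 library, with 397 reads, was 6.35-fold below the lowest of the others, control replicate 2 at ZT2. Between the 2 mice of a group the values differed most in controls at ZT2 and in mutants at ZT22, and the other 8 genes were also lower in the lower mouse of each of those pairs.

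TREM2 is a receptor for lipids and lipoproteins that signals through the adaptor TYROBP. Trem2 (ENSMUSG00000023992, chr17:48346401-48354147, plus strand) had 153 to 369 reads in the 8 control libraries of the other times (median 310.5) and 149 to 383 in the 8 mutant ones (median 301). At ZT6 it had 10 and 20 reads in controls and 19 and 27 in mutants, and at ZT18 it had 0 and 50 in controls and 15 and 9 in mutants. The 0 of control replicate 1 at ZT18 allows up to 3 reads, for counting error only. Trem2 had the fewest reads per kilobase of annotated exon of the 9 genes and the widest spread at ZT6 and ZT18, with 18.8 ± 15.0 reads (SD, n = 8, a coefficient of variation of 80.2%).

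C1qa, C1qb and C1qc encode the 3 chains of C1q, the recognition molecule of the classical complement pathway. They lie side by side on chromosome 4 of GRCm38, on the minus strand, C1qb (ENSMUSG00000036905) at chr4:136880129-136886187, C1qc (ENSMUSG00000036896) at chr4:136889804-136893065 and C1qa (ENSMUSG00000036887) at chr4:136895917-136898803. At the other times C1qa had 652 to 2093 reads in controls (median 1329.5) and 754 to 1855 in mutants (median 1202.5), while at ZT6 and ZT18 it had 84, 63, 65 and 141 in controls and 55, 44, 118 and 111 in mutants. C1qb had 852 to 2418 (median 1588) and 775 to 1978 (median 1270) at the other times, and 66, 89, 88 and 180 in controls and 56, 109, 152 and 181 in mutants at ZT6 and ZT18. C1qc had 787 to 2121 (median 1364) and 823 to 2000 (median 1388.5), and 87, 84, 68 and 96 in controls and 111, 74, 94 and 122 in mutants at ZT6 and ZT18. All 3 genes were lower in every ZT6 and ZT18 library than in any other. Within a library they lay nearer one another at the other times than at ZT6 and ZT18. The ratio of C1qb to C1qa reads lay between 0.980 and 1.53 over the 16 other libraries and between 0.786 and 2.48 over the 8, and that of C1qc to C1qa between 0.915 and 1.37 and between 0.681 and 2.02. The ratio of C1qb to C1qc lay between 0.884 and 1.35 and between 0.505 and 1.88.

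Cx3cr1, P2ry12 and Tmem119 are the genes by which unstimulated microglia are commonly recognised. CX3CR1 is the receptor for fractalkine, P2RY12 is an ADP receptor that draws microglial processes to damaged cells and vessels, and TMEM119 is a membrane protein used as a microglial marker. Cx3cr1 (ENSMUSG00000052336, chr9:119901616-120069879, minus strand) had 1643 to 3618 reads in controls at the other times (median 2961) and 1777 to 4586 in mutants (median 3332.5), and 122 to 229 at ZT6 and ZT18. P2ry12 (ENSMUSG00000036353, chr3:59216272-59262871, minus strand) had 1435 and 898 reads in controls at ZT2, 1120 and 1461 at ZT10, 1466 and 915 at ZT14 and 1496 and 1679 at ZT22, and in mutants 1609 and 2148, 1830 and 2196, 1196 and 914, and 807 and 2331. At ZT6 it had 156 and 49 reads in controls and 74 and 106 in mutants, and at ZT18 it had 127 and 229 in controls and 44 and 107 in mutants. P2ry12 was thus higher in mutants than in controls by median at the other times (1719.5 against 1448) and lower at ZT6 and ZT18 (90 against 141.5), with the genotypes overlapping in both. Tmem119 (ENSMUSG00000054675, chr5:113793729-113800516, minus strand) had 316 to 760 reads in controls (median 547) and 285 to 973 in mutants (median 619) at the other times. At ZT6 and ZT18 it had 35, 41, 52 and 46 in controls and 66, 7, 13 and 33 in mutants, so that the mutant values lay on both sides of the control ones.

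AIF1, also called IBA1, is an actin-binding protein of microglia and other macrophages. Aif1 (ENSMUSG00000024397, chr17:35170991-35176068, minus strand) had 88 to 479 reads in controls (median 187.5) and 141 to 290 in mutants (median 179) at the other times. At ZT6 and ZT18 it had 32, 26, 17 and 17 in controls and 45, 48, 30 and 2 in mutants. Its lowest library of the other times was 1.83-fold above its highest of ZT6 and ZT18, the narrowest gap of the 9 genes.

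**Figure D1:**
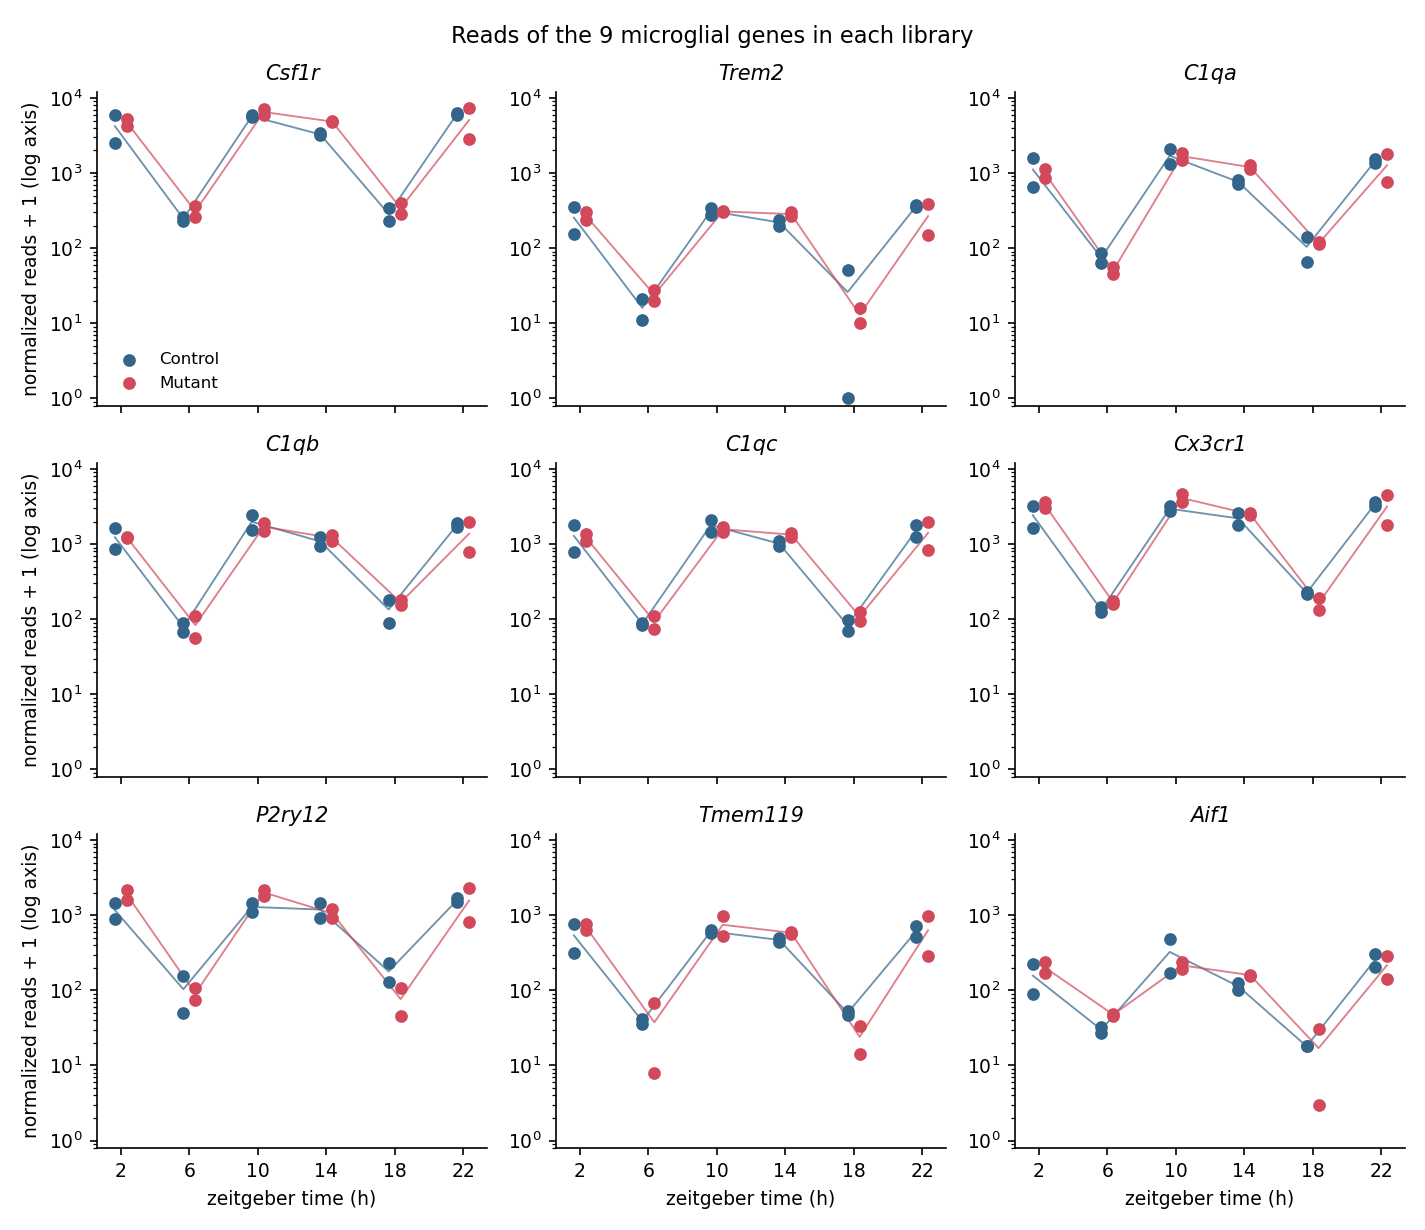
Normalized reads plus 1 (log axis) of each gene against zeitgeber time in hours, with 1 point per library, controls in blue, mutants in red, and lines through the means of the 2 mice. In every panel the 8 points at ZT6 and ZT18 lie below the 16 others, and Trem2 in control replicate 1 at ZT18 sits at the bottom of its panel with 0 reads.

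The difference between ZT6 and ZT18 and the other times was tested with edgeR's quasi-likelihood test, with genotype as a covariate. All 9 genes were lower, with log2 fold changes of -2.90 for Aif1 (standard error 0.33) to -4.12 for Cx3cr1 (standard error 0.19) and adjusted p-values of 2.61e-08 (Aif1) to 3.26e-17 (Csf1r and Cx3cr1). Of all genes tested, 10.9% were called lower and 5.85% higher, and the median log2 fold change of all genes was -0.01. The log2 fold change was -4.10 for Csf1r (standard error 0.19), -3.91 for Trem2 (0.32) and -3.71 for P2ry12 (0.26). Tmem119 had -4.04 (0.28), C1qa -3.89 (0.24), C1qb -3.65 (0.23) and C1qc -3.91 (0.18). As fold changes these values span 7.46-fold for Aif1 to 17.4-fold for Cx3cr1. No library of ZT6 or ZT18 overlapped any other library in any of the 9 genes, a pattern of all lower that 2.38% of genes tested showed. Within controls alone all 9 were called lower (5.52% of all genes were) and within mutants alone likewise (7.31%). The 9 calls also held among the 12 libraries of one i5 index, and against ZT2 and ZT14 or against ZT10 and ZT22 alone. Those 12 are all the libraries of ZT6 and ZT18 and the controls of ZT2 and ZT10. They hold no mutant of the other times. P-values rest on the spread between mice and not on a second set of libraries at these times.

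Other genes of microglia and macrophages were lower in the same 8 libraries. Of 20 other microglial genes, 19 fell, with a median log2 fold change of -3.74. Of the 20, 3 had 5 reads or more in fewer than 4 of those 8 libraries and so passed the filter through the other times. Among the remaining 17, 16 fell (median -3.56). The genes that fell included Selplg (-3.82, standard error 0.20), Ctss, the protease cathepsin S (-3.56), and Olfml3 (-3.32). The gene that was not called was Sparc (-0.19, adjusted p = 0.256), which endothelial cells also express strongly, with at least 8744 reads in every library. Of 20 general myeloid genes, 20 fell, with a median of -3.25, among them Laptm5, a lysosomal membrane protein (-3.65), the Fc receptor gene Fcgr3 (-4.12), Ly86 (-4.44) and the integrin gene Itgam (-3.66). Of these 20 myeloid genes, 1 passed the filter through the other times in the same way. The median of the remaining 19, which all fell, was -3.2. Of 18 genes of disease-associated microglia, 16 passed the filter and 11 fell (median -1.04). Those with the smallest p-values were the cathepsin genes Ctsd (-1.89) and Ctsb (-1.28), the chemokine gene Ccl3 (-4.91) and Tyrobp (-3.10). Of the 16, 3 passed the filter through the other times in the same way, and all 3 fell. Among the remaining 13, 8 fell (median -0.88).

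Macrophages of the brain borders share several of the 9 transcripts, and their own markers were much sparser. Of 10 border macrophage markers, 6 passed the filter and 4 fell (Mrc1 -2.99, Stab1 -0.56, F13a1 -2.08 and Cd163 -2.60). A genotype has only 4 libraries of ZT6 and ZT18, so a gene could not pass the filter through them alone, and genes read mainly at the other times passed more easily. Cd163, with medians of 18 and 0 reads, was the 1 of these 6 with 5 reads or more in fewer than 4 of the 8 libraries. With no low-count filter, 5 of the 10 fell. The summed reads of these 10 markers were 1045 to 1781 at the other times, of which Stab1, which some endothelium also expresses, had a median of 1209, and 743 to 994 at ZT6 and ZT18. Lyve1 was at 0 in 13 of 24 libraries and Cd209f in 22. Of 12 monocyte and neutrophil markers, 2 passed the filter and neither was called, while with no filter 3 of the 10 that had reads fell. Their summed reads were 41 to 877 at the other times and 11 to 90 at ZT6 and ZT18, with Camp and Mmp8 at 0 in all 24 libraries, S100a8 in 23 and Ccr2 in 15. Of 12 lymphocyte markers, 0 passed the filter, with summed reads of 1 to 66 at the other times and 0 to 10 at ZT6 and ZT18 and with Cd3d and Cd8a at 0 in all 24.

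Markers of other brain cells moved with the 9 genes too. Of 12 neuron markers 11 fell (median log2 fold change -2.46, summed reads 774 to 2510 at the other times and 438 to 780 at ZT6 and ZT18). Of 10 oligodendrocyte markers tested 8 fell (median -1.94, summed reads 5308 to 18223 and 2245 to 4497), and of 12 astrocyte markers 9 fell (median -1.42, summed reads 20781 to 35230 and 15118 to 20488). Of the genes tested, 4 neuron and 4 oligodendrocyte markers had 5 reads or more in fewer than 4 of the 8 ZT6 and ZT18 libraries and so passed the filter through the other times. Among the remaining 8 neuron markers 7 fell (median -2.0) and among the remaining 6 oligodendrocyte markers 6 fell (median -1.70), and each of the 12 astrocyte markers was above that limit. Of 7 red blood cell markers 5 fell (median -0.63, summed reads 2440 to 9116 and 1498 to 4983). In the opposite direction, 13 of 18 endothelial markers were higher at ZT6 and ZT18 (median 0.34, summed reads 141306 to 203198 and 207068 to 231768), as were 12 of 14 markers of pericytes and smooth muscle (median 0.52, summed reads 10850 to 20870 and 16405 to 26449) and 7 of 13 immediate-early genes (median 0.46, summed reads 24034 to 90097 and 65403 to 86931). The 9 genes thus had the lowest median of these lists, with the other microglial and the myeloid genes next. The part of these markers, of the mitochondrial share and of the run of library numbers in the result was not tested.

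**Figure D2:**
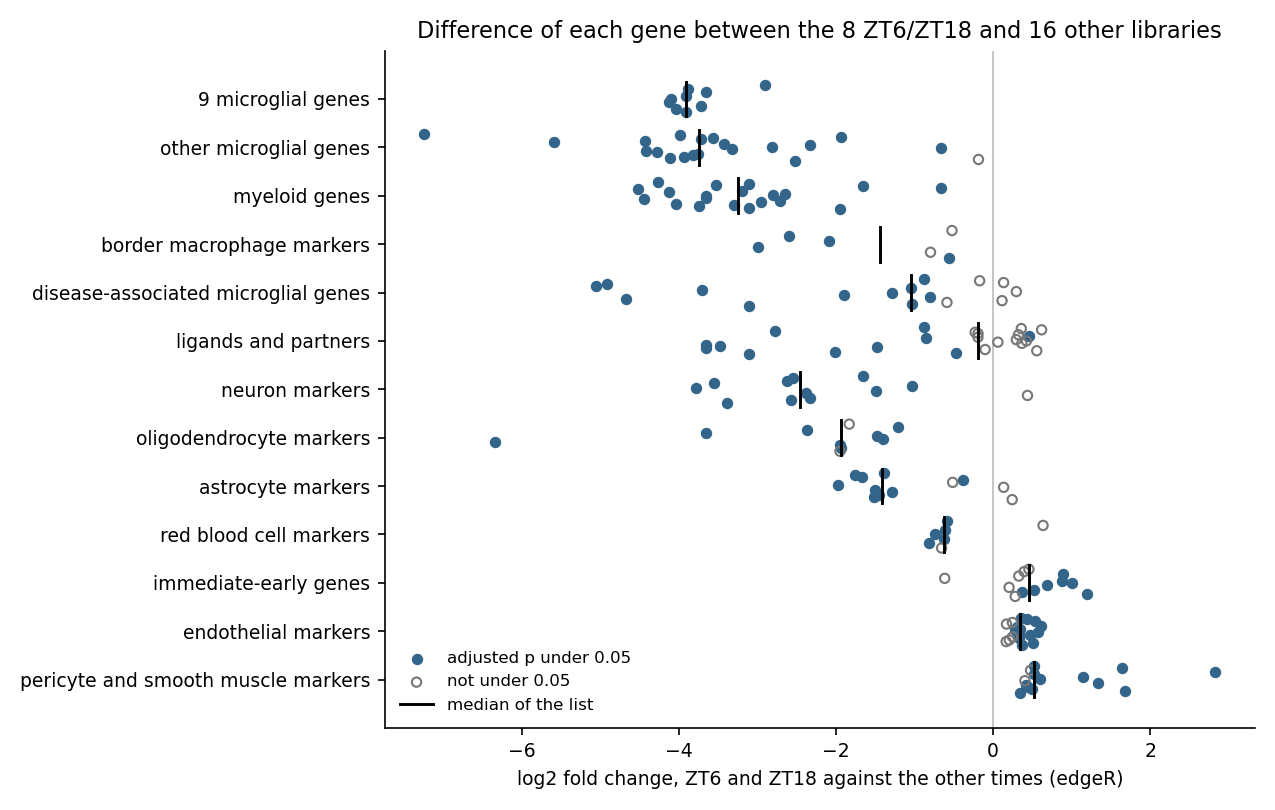
Log2 fold change of each gene between the 8 libraries of ZT6 and ZT18 and the 16 others (edgeR), by gene list, with filled points for an adjusted p under 0.05 and black bars for the median of each list. The 9 microglial genes lie between -4.12 and -2.90, the endothelial markers between 0.17 and 0.61.

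Genes whose products bind or act with the products of the 9 genes were given by a list of 26, of which 23 passed the filter. At ZT6 and ZT18, 10 of the 23 were lower and 1 was higher. Of the 10, 1 had 5 reads or more in fewer than 4 of the 8 libraries and so passed the filter through the other times. Among the remaining 22 genes tested, 9 were lower. The genes lower with the smallest p-values were Itgam (-3.66) and Itgb2 (-3.47), which encode the chains of complement receptor 3, Lrp1 (-1.47), a lipoprotein receptor, and Syk (-2.01), a kinase of receptor signalling. Genes of this list beyond those 4 are named for their binding to the proteins described, after their values were seen. Csf1, a ligand of CSF1R, had a median of 315.5 reads at the other times and 391 at ZT6 and ZT18 (log2 fold change 0.30, standard error 0.15, adjusted p = 0.213), and Il34, its other ligand, 39 and 46.5 (0.37, standard error 0.35, adjusted p = 0.586). Cx3cl1, which encodes fractalkine, had 575 and 641.5 (0.42, standard error 0.19, adjusted p = 0.136). These 3 genes did not pass the test. Apoe and Clu, which encode apolipoproteins that TREM2 binds, fell by 0.88 (edgeR adjusted p = 5.73e-06) and 0.85 (adjusted p = 2.66e-05) on the log2 scale, and Tyrobp, the adaptor gene of TREM2, fell from a median of 188 reads to 19 (log2 fold change -3.10). C1ra and C1s1, whose products join C1q in the C1 complex, had medians of 36.5 and 32 reads at the other times and 40.5 and 39.5 at ZT6 and ZT18, and were not called (adjusted p = 0.572 and 0.330), while C4b, which encodes complement C4, the next component of the classical pathway, fell by 2.77 on the log2 scale (edgeR adjusted p = 0.00119). The gene that rose was Cd93, which endothelial cells express (0.46, adjusted p = 0.00236).

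Levels were compared between genes as normalized reads per kilobase of annotated exon, over the 16 libraries of the other times. From the highest, the order was C1qb (1336 ± 419 reads per kilobase, SD, n = 16), C1qa (1221 ± 421), Csf1r (876.5 ± 255), C1qc (723 ± 208) and Cx3cr1 (669.5 ± 196). It went on with P2ry12 (577 ± 190), Tmem119 (263.5 ± 83.9), Aif1 (133.5 ± 62.2) and Trem2 (57.3 ± 14.7). C1qb exceeded C1qa in 10 of 16 libraries, and C1qc exceeded Cx3cr1 in 10 of 16, so that these neighbours were not separated beyond their spread. Each other neighbour was the higher one in 14 to 16 of the 16 libraries. At ZT6 and ZT18 the levels ran from 106 ± 45.7 for C1qb to 3.79 ± 3.04 for Trem2 (SD, n = 8), and the means over both genotypes kept the order of the first 4 genes. In the 4 controls alone P2ry12 (55.1 ± 29.2) stood above Csf1r (45.9 ± 9.25) and C1qc (43.4 ± 6.05, SD, n = 4), with overlapping ranges. Over the length of the principal transcript alone, Trem2 had 261 ± 67.0 reads per kilobase at the other times, because its annotated exons cover 4946 bases and its principal transcript 1088, and it then stood above Aif1 (234 ± 109). C1qc (1161 ± 333.5) and Csf1r (1077 ± 313) also changed places. For scale, the endothelial gene Cldn5 had 3937 ± 1108 reads per kilobase of exon and Pecam1 1094 ± 169 in the same 16 libraries. Over its principal transcript Pecam1 had 2074 ± 320 reads per kilobase, above the mean of each of the 9 genes over theirs.

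**Figure D3:**
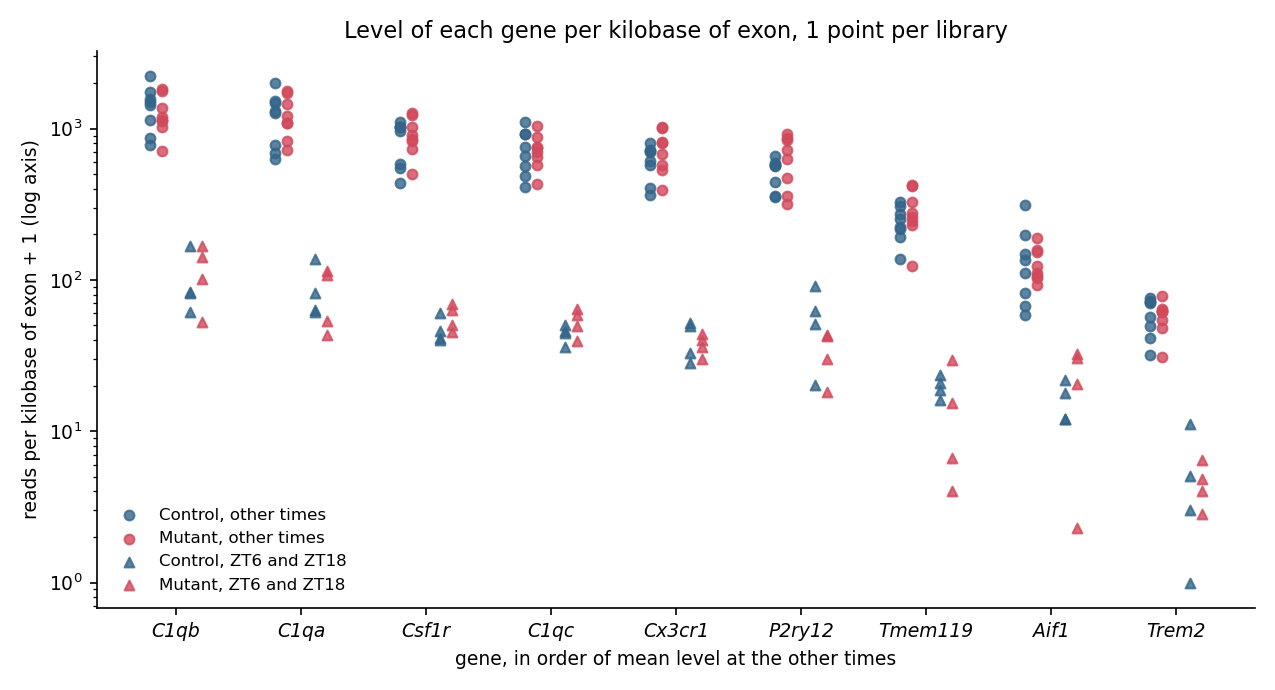
Normalized reads per kilobase of annotated exon plus 1 (log axis) of each gene, with 1 point per library, circles for ZT2, ZT10, ZT14 and ZT22, triangles for ZT6 and ZT18, controls in blue and mutants in red. Genes are ordered by their mean at the other times, from C1qb (1336) to Trem2 (57.3), and the triangles lie below the circles for each gene.

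Deletion of Bmal1 by Tie2cre was not accompanied by a detected difference in any of the 9 genes. Over all times their summed reads had a median of 10325 in the 12 controls and 13076 in the 12 mutants, with ranges of 725 to 18264 and 857 to 21553 that overlap. In edgeR's test with time point as a factor, 0 of the 9 were called, against 0.271% of all genes tested (0.155% higher and 0.116% lower), and 0 of the 9 had an unadjusted p under 0.05, against 6.95%. DESeq2 also called 0 of the 9. With 1 mouse left out at a time up to 2 of the 9 had an unadjusted p under 0.05, Csf1r and Cx3cr1 without mutant replicate 1 at ZT22, and with no low-count filter 1 did, Csf1r, with 0 of the 9 called in each. Csf1r had the largest difference, a log2 fold change of mutants against controls of 0.20 (95% interval -0.06 to 0.46, unadjusted p = 0.127), followed by Cx3cr1 with 0.15 (-0.12 to 0.42). The other 7 genes lay between -0.05 (Trem2, -0.57 to 0.47) and 0.09 (Aif1, -0.39 to 0.57). The intervals are the limit of what these mice show. They were narrowest for Csf1r and widest for Trem2, with C1qc at 0.08 (-0.20 to 0.35) and Tmem119 at 0.06 (-0.38 to 0.50).

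Among the 16 libraries of the other times, 0 of 9 genes were called (0.181% of all genes), with P2ry12 at a log2 fold change of 0.26 (95% interval -0.11 to 0.64), Tmem119 at 0.23 (-0.16 to 0.63) and Cx3cr1 at 0.23 (-0.10 to 0.55). Among the 8 libraries of ZT6 and ZT18, 0 of 9 were called (0.0194%), with P2ry12 at -0.69 (-1.46 to 0.07), Tmem119 at -0.53 (-1.78 to 0.71) and Csf1r at 0.32 (-0.09 to 0.72). At these low reads the intervals were wide, up to -2.21 to 1.85 for Trem2. The difference between the 2 classes was tested as an interaction of genotype with class. By edgeR, 0 of 15493 genes passed it (612 genes, 3.95%, had an unadjusted p under 0.05, and DESeq2 called 0), 0 of the 9 included. P2ry12 was the 1 of the 9 with an unadjusted p under 0.05, with an interaction of -1.03 on the log2 scale (95% interval -1.87 to -0.19, unadjusted p = 0.0179, adjusted p = 1.00 by edgeR), which does not pass the correction. For Tmem119 the interaction was -0.75 (-1.73 to 0.23) and for C1qb 0.42 (-0.37 to 1.22). With 1 mouse left out at a time the interaction ran from -1.32 to -0.70 for P2ry12, from -1.51 to -0.41 for Tmem119 and from 0.19 to 0.80 for C1qb, and up to 2 of the 9 then had an unadjusted p under 0.05, with 0 called. The lowest and the highest value of Tmem119 came without mutant replicate 1 and without mutant replicate 2 at ZT6, which held 66 and 7 reads of it.

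**Figure D4:**
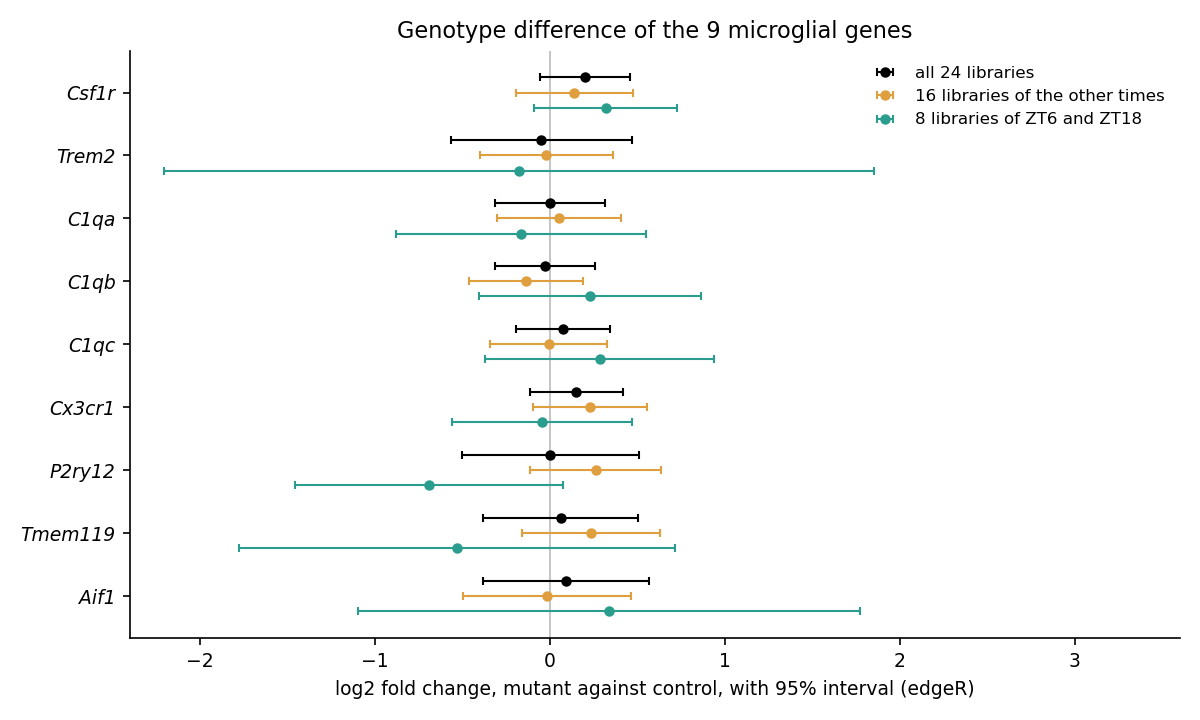
Log2 fold change of mutants against controls for each gene with its 95% interval (edgeR), over all 24 libraries (black), the 16 libraries of the other times (orange) and the 8 of ZT6 and ZT18 (green). Every interval crosses 0, and P2ry12 lies at 0.26 in the 16 libraries and -0.69 in the 8.

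The wider lists gave few genotype differences. Of the 20 other microglial genes and the 20 myeloid genes, 0 were called between genotypes, with median log2 fold changes of 0.09 and 0.04, against 0.00 over all genes. Among the 23 tested ligands and partners and the 16 tested genes of disease-associated microglia, 1 gene was called in each list, and it was the same gene, Apoe, which encodes a lipoprotein that TREM2 binds and which astrocytes make in large amounts. Apoe had 3957 to 16081 reads in controls and 3785 to 9920 in mutants, overlapping ranges, and fell by 0.43 on the log2 scale in mutants (standard error 0.10, edgeR adjusted p = 0.0451). It was called in 7 of 24 fits that each left out 1 mouse (adjusted p = 0.0150 to 0.114), and by DESeq2 (adjusted p = 0.00577). At the other times all mutants carried the same i5 index, while controls carried both. Apoe was not called with this index as a covariate, where the log2 fold change was -0.39 (edgeR adjusted p = 0.347). It was also not called without the 3 libraries of the lowest numbers, control replicate 1 at ZT2 and both mutants at ZT14. There the log2 fold change was also -0.39 (edgeR adjusted p = 0.403). Nor was it called with relative log expression factors (adjusted p = 0.0501), with those 3 libraries marked by a covariate (adjusted p = 0.0672) or with no time covariate (adjusted p = 0.917). The log2 fold change of Apoe was -0.58 within the other times (edgeR adjusted p = 0.0393) and -0.14 within ZT6 and ZT18 (adjusted p = 0.987). In the same comparison of genotypes the median log2 fold change was -0.13 for the astrocyte markers, -0.42 for the red blood cell markers, -0.37 for the oligodendrocyte markers, 0.28 for the immediate-early genes and 0.09 for the endothelial markers. An unadjusted p under 0.05 was met by 2 of 12, 4 of 7, 3 of 10, 8 of 13 and 5 of 18 of these genes, against 6.95% of all genes tested, and 0 were called in each list. The part of these markers in the genotype comparisons was not tested.

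No 24-h rhythm was detected in any of the 9 genes in either genotype. By meta2d, which combines JTK_CYCLE and Lomb-Scargle, the p-value was 1 for all 9 in controls and for all 9 in mutants, so that 0 of 9 were called at the limit of the study, a q under 0.6, which 0.310% of all genes met in controls and 0.0387% met in mutants. An unadjusted p under 0.05 was met by 2.43% and 2.27% of all genes. ZT6 and ZT18 lie 12 h apart, so that low values at both and high values between them repeat every 12 h and cancel in a 24-h curve. With the class of ZT6 and ZT18 libraries as a covariate in an edgeR cosinor, 0 of 9 were called in controls (0.368% of all genes) and 0 of 9 in mutants (0.200%). The smallest unadjusted p-values in that fit were 0.0564 for C1qa in mutants and 0.0856 for Cx3cr1 in controls. A difference between the genotypes in their 24-h curve was called by edgeR for 0 genes of all tested (660, or 4.26%, had an unadjusted p under 0.05, and DESeq2 called 1), and the p-values of the 9 genes lay between 0.782 for P2ry12 and 0.995 for C1qb. With the i5 index as a covariate 4 of the 9 had an unadjusted p under 0.05 (930 genes of all tested did, and 1 gene was called), and with no low-count filter 2 of the 9 did (1566 genes did, and 52 were called), with 0 of the 9 called in each. That difference was fitted with no term for the ZT6 and ZT18 class, so that for these 9 genes the gap between the classes stayed in the residual. With the class of each genotype as a covariate, a fit added after the data were seen, 0 of the 9 were called by edgeR and 0 had an unadjusted p under 0.05, against 6.03% of all genes, and 1 gene of all tested (0.00645%) was called, Arntl. The smallest p-values of the 9 were then 0.0594 for P2ry12 and 0.0980 for Cx3cr1.

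The 9 genes varied together among the 16 libraries of the other times. Correlations between pairs of them, taken on log2(CPM + 1) with TMM scaling and given as a description over libraries that share the CD31 sort, had a median of 0.83 over these 16 libraries. The closest pair was C1qa with C1qc (0.95) and the least alike was P2ry12 with Aif1 (0.50). P2ry12 was closest to Cx3cr1 (0.91) and Tmem119 (0.80) and less like C1qa (0.54), C1qb (0.60) and C1qc (0.58), which among themselves stood at 0.92 to 0.95. Trem2 was closest to Csf1r (0.94). Over these 16 libraries the spread of each of the 9 genes was smaller once it was set against the other 8 in the same library. For Csf1r the coefficient of variation over the 16 libraries was 29.1% in reads and 10.0% relative to the other 8 genes, and for C1qc 28.7% and 11.8%. P2ry12 and Aif1 kept the largest relative variation, at 21.8% and 29.0%. At ZT6 and ZT18 the coefficient of variation was instead larger relative to the other 8 genes than in reads for 4 of the 9, which were C1qc (19.6% in reads and 22.6%), Cx3cr1 (23.2% and 23.4%), Tmem119 (53.2% and 61.1%) and Aif1 (56.2% and 59.7%). In the 8 libraries of ZT6 and ZT18, where reads were few, the median correlation of pairs was 0.24 and the range was -0.63 (C1qb with Aif1) to 0.70 (Cx3cr1 with P2ry12).

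**Figure D5:**
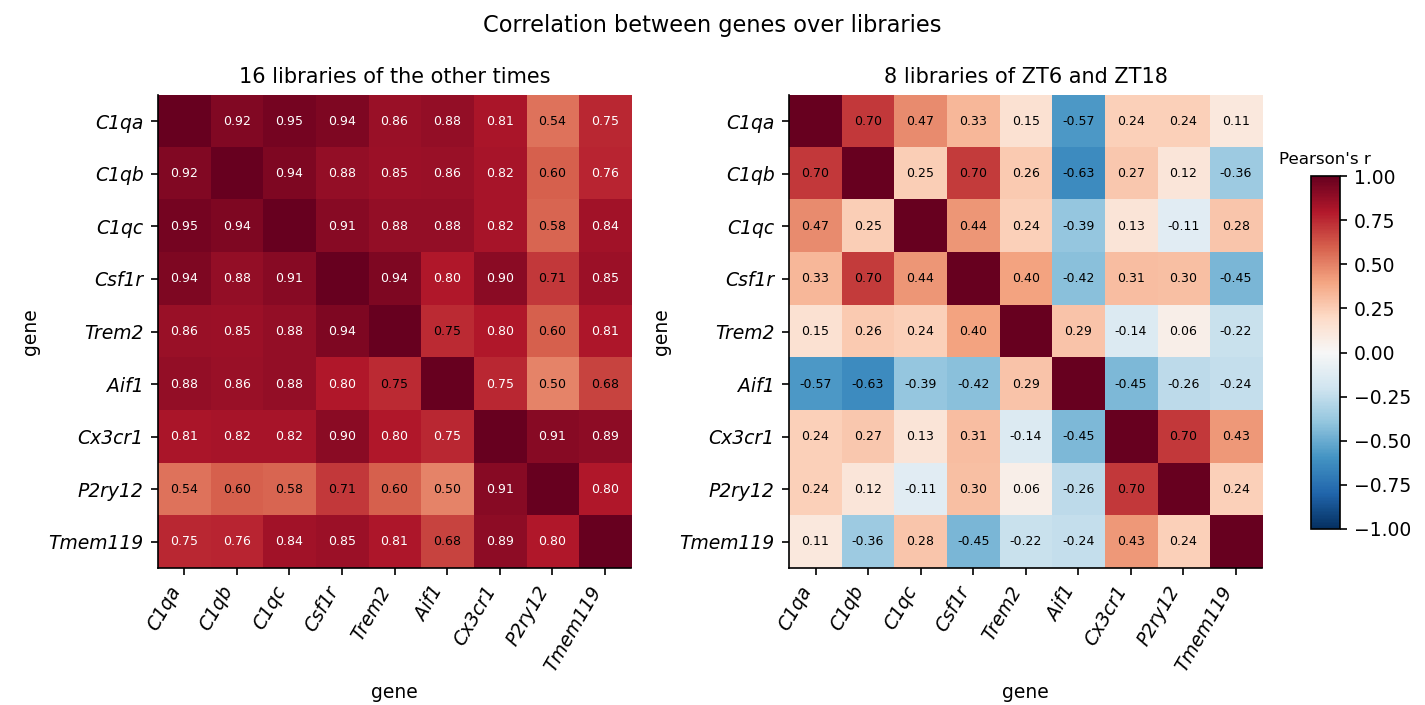
Pearson's r of log2(CPM + 1) between each pair of the 9 genes, over the 16 libraries of the other times (left) and the 8 of ZT6 and ZT18 (right), from -1 in blue to 1 in red. On the left every pair is at 0.50 or above, and on the right values run from -0.63 to 0.70.

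Among the 10 genes most like the mean profile of the 9, over 24 libraries with each class centred, were Man2b1 (r = 0.87), Lgmn (0.87), A130071D04Rik (0.87) and Ctsb (0.86), then Pld4 (0.85), Ctss (0.84), Il10ra (0.84), Laptm5 (0.84) and Unc93b1 (0.84). Man2b1, Lgmn, Ctsb and Ctss encode lysosomal enzymes, Il10ra a chain of the interleukin 10 receptor and Unc93b1 a protein that carries Toll-like receptors to endosomes. The list depended on the centring, since 6 of the 10 were among the first 10 when values were centred within genotype and time point and 7 with no centring, and with 1 mouse left out at a time 7 to 10 were, with 7 without control replicate 2 at ZT18. All 20 other microglial and all 20 myeloid genes had r above 0, with medians of 0.65 and 0.56, against 0.02 for all other genes tested. Border macrophage markers had a median of 0.37 and immediate-early genes 0.35. Among the 18 endothelial markers 0 had r above 0, and their median was -0.32. Among the lists that fell with the 9 genes at ZT6 and ZT18, the median r within the classes was -0.01 for neuron markers (range -0.41 to 0.21, 6 of 12 above 0), -0.12 for oligodendrocyte markers (-0.28 to 0.33, 2 of 10) and 0.06 for astrocyte markers (-0.39 to 0.38, 8 of 12). The median r was -0.08 for red blood cell markers (1 of 7 above 0). For the genes of disease-associated microglia it was 0.46 (15 of 16), and for ligands and partners 0.13 (17 of 23).

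The share that each gene took of the summed reads of the 9 overlapped between the 2 classes of libraries for each gene named here. Csf1r made up 28.4% to 37.0% of the sum at the other times (median 34.6%) and 25.7% to 38.7% at ZT6 and ZT18 (median 30.9%). Cx3cr1 made up a median of 20.5% and 16.9%, P2ry12 9.67% and 10.3%, and C1qb 9.72% and 12.0%. The median share of Aif1 was 1.26% at the other times and 3.50% at ZT6 and ZT18, with ranges of 1.07% to 2.62% and 0.173% to 5.25% that overlap.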

How the data were processed

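RNA was sequenced from CD31-sorted brain cells of 24 mice, 1 library per mouse. Per the labels, stranded total RNA libraries were aligned by the authors with STAR 2.5.3a to GRCm38 (SAMtools 1.3.1). The authors normalized by resampling with PORT and deposited gene counts as whole numbers. Each library held 6136404 to 6648311 normalized reads, which hide the depth of sequencing but set the counting error here. Duplicate reads were not identified by molecular tags, so limits cover counting error only.

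The 9 genes and all gene lists were chosen with earlier results of these data known. The filter of the study (5 reads in 6 libraries of either genotype) kept 15493 of 53465 genes. Tests used edgeR 4.0.16 (TMM, quasi-likelihood F test; R 4.3.3), and p-values were adjusted over all genes tested by Benjamini and Hochberg's method at 0.05. DESeq2 1.42.0 was an alternative. The meta2d method was rewritten in R and rhythms were tested at a period of 24 h. The main edgeR contrasts and the rewritten meta2d were tested on simulated counts. The DESeq2 fits, correlations, levels and promoter search were not. Library numbers and i5 indices came from the labels. The i5 index was not balanced over genotype or time. All libraries of ZT6 and ZT18 and the controls of ZT2 and ZT10 carried the same index, and the rest carried the other. A fit with the index as a covariate can therefore also take up part of a genotype or time difference. Gene positions came from GENCODE on GRCm38, and sequences from RefSeq. The genes named are the 9, the 10 most like them by correlation of log2(CPM + 1) with TMM scaling, and up to 4 of each list with the smallest p, with exceptions marked or given as counts at 0. One gene that this rule names is not reported here. Python 3.11.15 and matplotlib 3.10.9 made the summaries and plots. Other normalizations, filters, covariates and left-out mice were tried. Mice of a group differed by more than sampling noise, and each was counted as 1 replicate.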

Additional observations from a re-analysis of the deposited data

How the results depend on the processing

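All 9 genes remained lower at ZT6 and ZT18, and called, in all 24 fits that each left out 1 mouse and in all 13 other settings, with log2 fold changes of -2.51 (Aif1) to -4.43 (Tmem119) in the latter. For the genotype difference, the interaction and the rhythms, 0 of the 9 were called in any setting. Of 117 genotype log2 fold changes, 28 changed sign without a call, and the cause was not tested. Under DESeq2 these were P2ry12 (-0.044) and C1qa (-0.015), with relative log expression factors P2ry12 (-0.0053) and C1qa (-0.0039), and with no low-count filter P2ry12 (-0.0091) and C1qa (-0.0035). With the i5 index they were P2ry12 (-0.39), Tmem119 (-0.12), Cx3cr1 (-0.036) and C1qb (0.0040), with the 3 libraries of the lowest numbers marked by a covariate C1qa (-0.039), and without those 3 C1qa (-0.0056) and C1qb (0.025). Within ZT6 and ZT18 they were P2ry12 (-0.69), Tmem119 (-0.53), C1qa (-0.17), Cx3cr1 (-0.047) and C1qb (0.23), and within the other times Aif1 (-0.017) and C1qc (-0.0085). With no time covariate they were Aif1 (-0.069) and C1qc (-0.013), and with the summed reads of the 9 genes, chosen after seeing the data, P2ry12 (-0.14), Tmem119 (-0.091), C1qa (-0.081) and C1qc (-0.014). That sum holds the tested genes, so as a covariate it removes by construction a change they share.

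Replicate numbers did not pair the mice: deviations of same-numbered mice correlated at -0.0052 to 0.034. With the replicate block, P2ry12 had -0.016 and C1qa -0.00038, 45 genes were called between genotypes, and 0 calls of the 9 genes changed. With each mouse left out in turn, the genotype log2 fold change ran from -0.026 to 0.26 for Aif1, -0.072 to 0.10 for C1qa, -0.093 to 0.061 for C1qb, -0.11 to 0.11 for P2ry12, -0.076 to 0.15 for Tmem119 and -0.13 to 0.18 for Trem2, and the interaction from -0.33 to 0.21 for C1qa and -0.53 to 0.86 for Trem2. Over all genes, 42 were called between genotypes, 99 by DESeq2, 141 with no low-count filter, 9 without those 3 libraries, 7 with the i5 index and 0 with no time covariate (738 with an unadjusted p under 0.05). With 1 mouse left out at a time the count ran from 25, without mutant replicate 2 at ZT6, to 68, without mutant replicate 1 at ZT6. The ZT6 and ZT18 calls numbered 2595, and 1003 with the i5 index. The rhythm difference gave 52 genes with no low-count filter. With no centring the median correlation of pairs was 0.954 instead of 0.473, since the classes then enter it. Depth limits Trem2, Tmem119 and Aif1 at ZT6 and ZT18, where single libraries held 0, 7 and 2 reads.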
